A study of Erigeron canadensis with 32 samples.

Results

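Dicamba and halauxifen-methyl are synthetic auxin herbicides, and the leaf transcriptomes they leave behind in horseweed (*Erigeron canadensis*) 6 h after herbicide treatment (6 HAT) were compared directly with each other, without the water-treated plants. The comparison takes the 4 libraries of dicamba at 6 HAT and the 4 libraries of halauxifen-methyl at 6 HAT, 8 of the 32 libraries of the series, chosen by their labels alone. All plants were of a glyphosate-resistant biotype at the rosette stage, were raised in a greenhouse in potting medium, and received surfactant with the treatment. Each library holds the RNA of 1 leaf of 1 plant, so the spread between libraries includes plant-to-plant differences, and the leaf RNA is a mixture of cell types in which fewer cells of a type and less RNA per cell cannot be told apart. The other groups were 2,4-D and water at 6 HAT and all 4 treatments at 1 HAT, each of 4 other plants. The herbicides were sprayed at different rates, dicamba at the higher one, and the compound and its rate cannot be told apart in any difference below.

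Auxin herbicides mimic indole-3-acetic acid. In *A. thaliana*, auxin joins the TIR1/AFB receptors to the AUX/IAA repressors and the repressors are destroyed. The ARF factors they held then turn on the AUX/IAA, GH3 and SAUR genes. Ethylene and abscisic acid synthesis have been proposed to follow, and reports on ethylene conflict. Dicamba is a benzoic acid herbicide and halauxifen-methyl is the methyl ester of an arylpicolinate. Plants dispose of foreign compounds through oxidation by cytochrome P450s, conjugation to glutathione or sugar by glutathione transferases (GSTs) and UDP-glycosyltransferases (UGTs), and transport of the products by ABC and MATE proteins, and many genes of these families are known to respond to chemicals. Defence against pathogens runs through salicylic acid, its regulator NPR1 and the EDS1 protein. Gene symbols below are those of the best *A. thaliana* hit, and roles given are those known in *A. thaliana* unless another species is named.

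The 8 libraries held 13861040 to 23388792 counts, with a median of 18427934. Log2 CPM (read counts scaled to library size) of 2 libraries of a group correlated at 0.851 to 0.952 across genes, and of libraries of different herbicides at 0.852 to 0.954, ranges that overlap almost fully. Dicamba replicate 2 stood farthest from the others on the first principal component. The mesophyll markers CAB1, LHCB3, RCA and CA1 were abundant in both groups, while both genes annotated as RBCS1A had no count. Of 34 genes annotated as markers of other cell types and organs 16 had a count and 7 were abundant enough to test. Their summed level was 139 to 214 CPM after dicamba and 142 to 152 CPM after halauxifen-methyl. Of the guard cell markers, the channel gene KAT1 averaged 103 CPM after dicamba and 71.0 CPM after halauxifen-methyl, while FMA and MYB60 were at 0 in all 8 libraries. The epidermal KCS10 averaged 39.3 and 41.8 CPM and the phloem gene SUC2 0.746 and 0.156 CPM. Of the xylem genes, IRX3 averaged 8.91 and 11.05 CPM and CESA4 (HW_4920_g) 0.616 and 0.168 CPM. SHR, listed as a root marker, averaged 8.45 and 9.38 CPM. The root genes SCR (HW_34096_g) and NRT2:1 (HW_51905_g) averaged 0.213 and 0.339 CPM and 0.0507 and 0.204 CPM. The phloem factor APL and the meristem genes STM and WUS were at 0. Of the flower markers, AP3 (HW_23618_g) averaged 28.0 CPM after dicamba and 10.4 CPM after halauxifen-methyl. The SEP3 hit HW_10491_g averaged 2.47 and 2.44 CPM, and AG was at 0. The part of other cell types in the differences was not tested.

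Few genes separated the herbicides in edgeR's quasi-likelihood test, while DESeq2 and edgeR's exact test called more, as counted in the closing section. By their annotation, grouped after the calls had been seen, the 32 genes higher after dicamba included 10 oxidoreductases and 6 ABC and MATE transporters. They also included 4 glutathione transferases or peroxidases and 3 sugar transferases. In the same grouping the 40 genes higher after halauxifen-methyl included 10 placed by hand in a class of immunity and salicylic acid. They also included 5 oxidoreductases, 4 chaperones and endoplasmic reticulum proteins, 4 genes of phenylalanine, lignin and flavonoid synthesis and 4 of fatty acid metabolism. No share of these classes among all genes was computed, and counts over whole gene lists are given with each family. Of 14719 genes tested with edgeR's quasi-likelihood test, 72 passed an adjusted p of 0.05, which is 0.489% of the genes. Of these, 32 genes were higher after dicamba (0.217%) and 40 were higher after halauxifen-methyl (0.272%). These shares are the background for list counts of the quasi-likelihood test below, and the closing section gives the totals of the other tests. Before adjustment 1374 genes had p under 0.05, and the test is expected to reach 736 when no gene differs. The median log2 fold change of all genes, coded as dicamba minus halauxifen-methyl, was 0.03.

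**Figure D1:**
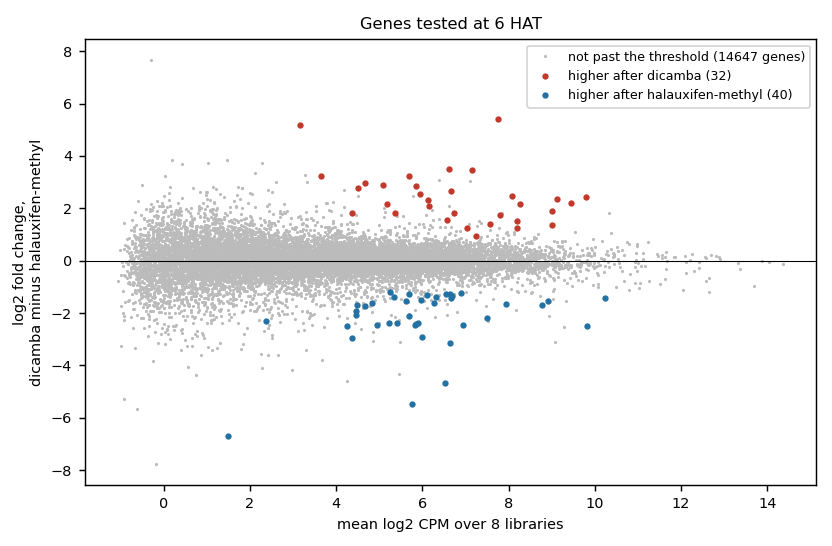
Each point is a gene tested at 6 HAT. The x axis gives the mean log2 CPM over the 8 libraries and the y axis the log2 fold change, dicamba minus halauxifen-methyl. The 32 genes higher after dicamba are red, the 40 genes higher after halauxifen-methyl are blue, and genes not past the adjusted p of 0.05 are grey.

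The number of calls moved with single plants. Leaving out 1 library at a time kept 41, 32, 54 and 36 of the 72 genes past the threshold without dicamba replicates 1, 2, 3 and 4, and 28, 22, 37 and 54 without halauxifen-methyl replicates 1, 2, 3 and 4. Calls held with each library left out for 17 genes, 11 of them higher after dicamba and 6 higher after halauxifen-methyl. An adjusted p given below for a left-out library is the highest of these fits, and other omissions can lose the call too. Every one of the 72 genes had all 4 libraries of one herbicide above all 4 of the other. Over all tested genes 2.68% had every dicamba library above every halauxifen-methyl library and 4.36% had every one below. With all 32 libraries in one fit 51 of the 72 genes stayed past the threshold, and that fit called more than 72 genes in all. With replicate number added as a block 38 of the 72 stayed past it. By class the block kept 8 of 10 dicamba-high oxidoreductases, 5 of 6 transporters, 2 of 4 glutathione transferases or peroxidases and 2 of 3 sugar transferases. Of the halauxifen-high classes it kept 5 of 10 immunity, 2 of 5 oxidoreductase, 1 of 4 chaperone, 2 of 4 phenylpropanoid and 0 of 4 fatty acid genes. CPM values are listed in the order of replicates 1, 2, 3 and 4, and ± after a log2 fold change is its SE.

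Among genes annotated as glutathione transferases or peroxidases, 4 were higher after dicamba. Of 24 GST genes tested, 3 were higher after dicamba and none after halauxifen-methyl, with a list median of 0.16. Over all genes tested 0.217% were higher after dicamba and 0.272% after halauxifen-methyl. Both *GSTU25* and *GSTU19* belong to the plant-specific tau class, whose enzymes attach glutathione to herbicides and other electrophiles, and *GSTL3* belongs to the lambda class. *GSTU25* (HW_12562_g) stood at 65.4, 151, 60.5 and 81.6 CPM after dicamba and at 14.9, 17.5, 19.3 and 11.5 CPM after halauxifen-methyl, a log2 fold change of 2.54 ± 0.32 with an adjusted p of 0.012. *GSTU19* (HW_20212_g) stood at 19.5, 31.9, 5.42 and 20.5 CPM after dicamba and at 2.74, 1.79, 2.35 and 1.58 CPM after halauxifen-methyl, a log2 fold change of 3.22 ± 0.49 (adjusted p = 0.021). *GSTL3* (HW_44098_g) was measured at 663, 489, 1099.6 and 512 CPM with dicamba and 209, 176, 207 and 171 CPM with halauxifen-methyl, a log2 fold change of 1.89 ± 0.27 (adjusted p = 0.016). Every dicamba plant was above every halauxifen-methyl plant for the 3 genes, and dicamba replicate 3 held the lowest *GSTU19* value of its group. The peroxide-removing enzyme *GPX6* (HW_39856_g), the 1 gene called of 33 on the peroxidase list (median -0.15), stood at 147, 201, 171 and 158 CPM against 81.9, 92.1, 90.9 and 92.6 CPM, a log2 fold change of 0.96 ± 0.16 (adjusted p = 0.033). This was the smallest difference among the 72 genes. With single libraries left out *GSTU25* kept its call throughout, while the adjusted p reached 0.083 without halauxifen-methyl replicate 2 for *GSTU19*, 0.061 without halauxifen-methyl replicate 2 for *GSTL3* and 0.14 without halauxifen-methyl replicate 1 for *GPX6*. *GSTU19* and *GPX6* were each called in 1 of the 8 fits that left out 1 library, and *GSTL3* in 5.

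Sugar transferases gave 3 of the dicamba-high genes. *UGT89B1*, a glucosyltransferase of phenolic compounds and the 1 gene called among 100 on the UGT list (median 0.16), was 33.9, 53.99, 63.8 and 53.2 CPM after dicamba against 10.9, 3.59, 6.49 and 7.27 CPM after halauxifen-methyl (HW_31946_g, log2 fold change 2.89 ± 0.35, adjusted p = 0.012). The lowest dicamba plant stood above the highest halauxifen-methyl plant. DESeq2 called 5 of the UGT list higher after dicamba and 2 higher after halauxifen-methyl, and edgeR's exact test 4 and 2. Another pair of genes, HW_10304_g and HW_53177_g, carries the symbol *IAGLU*, the indole-3-acetate glucosyltransferase that ties sugar to auxin, a hit shared by 12 tested genes of this genome, so reads could be split among copies. Their mean levels were 97.9 ± 35.7 CPM after dicamba against 23.2 ± 6.45 CPM after halauxifen-methyl for HW_10304_g (log2 fold change 2.11 ± 0.30, adjusted p = 0.016) and 27.6 ± 4.63 against 7.87 ± 3.48 CPM for HW_53177_g (SD, n = 4, log2 fold change 1.84 ± 0.33, adjusted p = 0.046). *UGT89B1* kept its call with each library left out, and the adjusted p reached 0.055 without halauxifen-methyl replicate 2 for HW_10304_g and 0.12 without halauxifen-methyl replicate 1 for HW_53177_g, which was at 0.25 with all 32 libraries. HW_53177_g was called in none of the 8 fits that left out 1 library.

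Export and vacuolar transporters gave 6 of the dicamba-high genes. Of 103 ABC and MATE transporters on the list, 5 were higher after dicamba and none after halauxifen-methyl, and the list median was 0.22. Over all genes tested 0.217% were higher after dicamba. DESeq2 called 8 of the list higher after dicamba and 3 higher after halauxifen-methyl, and edgeR's exact test 5 and 3. MATE proteins carry organic compounds out of the cytosol, and ABCC2 moves glutathione conjugates into the vacuole. The MATE gene *AT5G65380* (HW_35922_g) stood at 1468, 1235, 1058 and 1385 CPM after dicamba and 294, 251, 322 and 121 CPM after halauxifen-methyl, a log2 fold change of 2.42 ± 0.29 (adjusted p = 0.012). The MATE gene *AT5G44050* (HW_28710_g) stood at 395, 251, 539 and 388 CPM against 86.5, 81.8, 89.99 and 29.8 CPM, a log2 fold change of 2.49 ± 0.36 (adjusted p = 0.017), with halauxifen-methyl replicate 4 far below its group. A smaller difference was seen for the MATE gene *AT1G71140* (HW_26824_g), at 127, 202, 144 and 156 CPM against 72.5, 50.1, 66.9 and 78.997 CPM and a log2 fold change of 1.26 ± 0.21 (adjusted p = 0.033). For this last gene the halauxifen-methyl plants lay below the water plants, which had 114, 185, 178 and 149.6 CPM, and the dicamba plants overlapped them.

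*ABCC2* (HW_19534_g) was 83.96, 89.05, 130.4 and 93.04 CPM after dicamba and 19.7, 17.4, 34.05 and 10.8 CPM after halauxifen-methyl, a log2 fold change of 2.32 ± 0.32 (adjusted p = 0.015). *ABCC10* (HW_20830_g), of the same subfamily, was 243, 272, 398 and 260.2 CPM against 97.2, 91.6, 110.1 and 56.8 CPM, a log2 fold change of 1.76 ± 0.24 (adjusted p = 0.015). The groups were separate for both genes, with halauxifen-methyl replicate 4 lowest each time. The half-size transporter *ABCB27* (HW_48333_g), known from aluminium tolerance and not a member of the list, had a mean of 789 ± 215 CPM after dicamba and 159.6 ± 24.9 CPM after halauxifen-methyl (SD, n = 4, log2 fold change 2.34 ± 0.24, adjusted p = 0.0051). Of the 6 transporters, *ABCB27* and *AT5G65380* kept their calls with each library left out, and the others lost them without at least 1 library, with an adjusted p of up to 0.097 without halauxifen-methyl replicate 3 for *AT1G71140*, 0.054 without halauxifen-methyl replicate 2 for *ABCC2*, 0.054 without halauxifen-methyl replicate 2 for *ABCC10* and 0.054 without halauxifen-methyl replicate 2 for *AT5G44050*. In the fit of the 16 libraries of 6 HAT, *AT5G44050* was at 0.078, and with all 32 libraries *AT1G71140* was at 0.083.

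**Figure D2:**
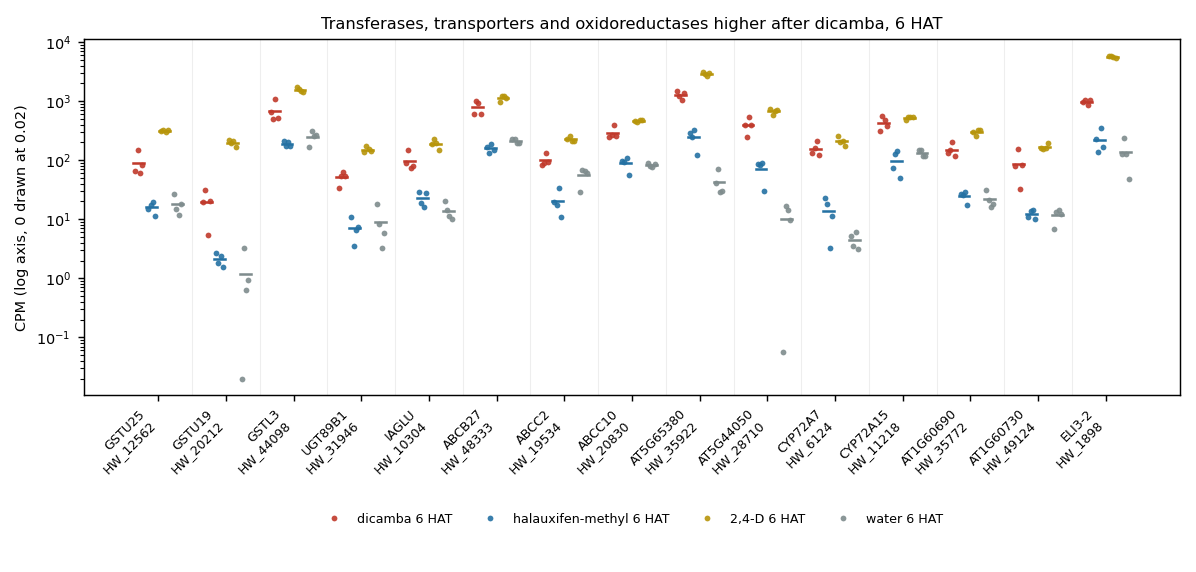
Points are CPM in each of the 4 libraries of dicamba, halauxifen-methyl, 2,4-D and water at 6 HAT, on a log axis with values of 0 drawn at 0.02, and bars are arithmetic means, for 15 of the transferase, transporter and oxidoreductase genes higher after dicamba. The dicamba points lie above the halauxifen-methyl points for every gene shown, as the choice of genes requires, and the 2,4-D means lie above the dicamba means.

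Oxidoreductases were called in both directions, 10 higher after dicamba and 5 higher after halauxifen-methyl. These counts depend on the sorting by hand. The oxygenase *AT1G06620* and the dehydrogenase *ELI3-2*, both higher after dicamba, are counted here. The oxygenase *AT4G10490*, higher after halauxifen-methyl, was placed in the immunity class. The 5 genes include HW_37849_g, whose annotations conflict. P450s of the CYP72 clan, membrane enzymes that hydroxylate small molecules, contributed *CYP72A7* (HW_6124_g), at 130.2, 158, 209 and 123 CPM after dicamba against 22.8, 17.97, 3.25 and 11.4 CPM after halauxifen-methyl, a log2 fold change of 3.51 ± 0.50 (adjusted p = 0.016). *CYP72A15* (HW_11218_g) stood at 313, 560.4, 475 and 380.5 CPM against 74.2, 128, 142 and 49.2 CPM, a log2 fold change of 2.18 ± 0.34 (adjusted p = 0.021). These were 2 of 152 P450 genes tested, where 0.217% of all genes tested were higher after dicamba. The list median was 0.09, and 1 gene, *CYP93D1* (HW_37956_g), went the other way, at 29.7, 21.9, 17.6 and 17.003 CPM after dicamba and 65.8, 72.5, 51.9 and 64.5 CPM after halauxifen-methyl (log2 fold change -1.53 ± 0.22, adjusted p = 0.016). Without single libraries the adjusted p reached 0.054 without halauxifen-methyl replicate 2 for *CYP72A7*, 0.075 without dicamba replicate 2 for *CYP72A15* and 0.055 without dicamba replicate 2 for *CYP93D1*. With all 32 libraries in one fit *CYP93D1* was at 0.53. Of the P450 list, DESeq2 called 4 genes higher after dicamba and 7 higher after halauxifen-methyl, and edgeR's exact test 4 and 5.

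Aldo-keto reductases reduce aldehydes and ketones to alcohols. Of the dicamba-high genes 5, and of the halauxifen-high genes 1, are annotated to this family, which has 25 tested genes and a median log2 fold change of 0.56. That list was drawn up after the calls had been seen. *AT1G60690* (HW_35772_g), whose closest protein in the NR database is an auxin-induced protein of sesame, stood at 130.1, 149.7, 199 and 119.5 CPM after dicamba and 26.4, 25.9, 28.7 and 17.1 CPM after halauxifen-methyl, a log2 fold change of 2.65 ± 0.23 (adjusted p = 0.0051). *AT1G60730* (HW_49124_g) stood at 79.2, 154, 32.1 and 82.2 CPM against 10.7, 14.04, 14.3 and 10.04 CPM, a log2 fold change of 2.86 ± 0.41 (adjusted p = 0.016). A second gene with the hit *AT1G60690* (HW_38124_g) stood at 30.7, 18.6, 59.02 and 26.7 CPM against 4.78, 7.402, 5.53 and 2.72 CPM, a log2 fold change of 2.76 ± 0.41 (adjusted p = 0.018). Groups did not meet for any of the 3 genes. The pair annotated as *ATB2*, HW_41920_g and HW_54440_g, had log2 fold changes of 1.52 ± 0.17 and 1.55 ± 0.23 (adjusted p = 0.0062 and 0.018). In the opposite direction, another gene with the hit *AT1G60690* (HW_33360_g) averaged 47.2 ± 10.5 CPM after dicamba and 128 ± 7.08 CPM after halauxifen-methyl (SD, n = 4, log2 fold change -1.41 ± 0.19, adjusted p = 0.015). The hit *AT1G60690* is shared by 9 tested genes, and counts of near copies are uncertain. With single libraries left out HW_35772_g and HW_41920_g kept their calls, and the adjusted p reached 0.056 without halauxifen-methyl replicate 1 for *AT1G60730*, 0.062 without halauxifen-methyl replicate 1 for HW_38124_g, 0.07 without halauxifen-methyl replicate 2 for HW_54440_g and 0.053 without halauxifen-methyl replicate 1 for HW_33360_g.

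The other oxidoreductases higher after dicamba were the cinnamyl alcohol dehydrogenase *ELI3-2*, a 2-oxoglutarate-dependent oxygenase and a flavoprotein. *ELI3-2* (HW_1898_g), the elicitor-activated member of the enzymes that make lignin alcohols, stood at 982, 1032, 867 and 1047 CPM after dicamba and 230.1, 136, 355 and 165 CPM after halauxifen-methyl, a log2 fold change of 2.19 ± 0.29 (adjusted p = 0.015). It lost its call, at an adjusted p of 0.053, in the fit of all 32 libraries, as did the oxygenase *AT1G06620* (HW_8642_g) at 0.059 and HW_38124_g at 0.054. The flavoprotein *AT4G38540* (HW_46929_g), closest to aromatic-ring hydroxylases, had means of 141 ± 21.7 and 40.7 ± 5.301 CPM (SD, n = 4) and a log2 fold change of 1.82 ± 0.18 (adjusted p = 0.0051). The oxygenase *AT1G06620* (HW_8642_g) had means of 54.5 ± 19.4 and 15.8 ± 3.02 CPM (SD, n = 4) and a log2 fold change of 1.82 ± 0.27 (adjusted p = 0.018). Of the 10 dicamba-high oxidoreductases, 4 kept their calls with each library left out, and 5 remained without halauxifen-methyl replicate 1.

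The largest differences in favour of dicamba lay outside these families. *AT5G61820* (HW_44872_g), a homologue of the stress-induced Nod19 protein of legumes, stood at 125, 371, 776 and 165 CPM after dicamba and 7.86, 8.51, 16.2 and 2.32 CPM after halauxifen-methyl, a log2 fold change of 5.42 ± 0.75 (adjusted p = 0.015). The dirigent-like gene *AT2G21110* (HW_26196_g), of the proteins that steer the coupling of lignin and lignan precursors, stood at 9.02, 10.2, 19.7 and 19.8 CPM against 0.391, 0.4197, 0.691 and 0.148 CPM, a log2 fold change of 5.20 ± 0.51 (adjusted p = 0.0051). For both genes the dicamba plants stood far above the halauxifen-methyl plants, and *AT5G61820* spread widely within dicamba, lowest in replicate 1 and highest in replicate 3. Its call was lost without halauxifen-methyl replicate 1 and without replicate 2, with an adjusted p of up to 0.054 without halauxifen-methyl replicate 2.

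A putative E3 ubiquitin ligase, *AT3G19990* (HW_36627_g), was 95.8, 113, 21.5 and 88.1 CPM after dicamba and 11.03, 6.295, 4.14 and 12.9 CPM after halauxifen-methyl, a log2 fold change of 3.24 ± 0.53 (adjusted p = 0.028). The phosphatase-like *AT1G48120* (HW_44329_g) was 33.1, 17.8, 60.5 and 41.8 CPM against 3.69, 7.21, 5.39 and 4.004 CPM, a log2 fold change of 2.95 ± 0.38 (adjusted p = 0.015). Both genes were near absent in water plants, with means of 0.537 and 0.371 CPM, and every plant of either herbicide was above every water plant. Neither passed the threshold in the fit of all 32 libraries (adjusted p = 0.077 and 0.080). Of the genes without an *A. thaliana* hit, HW_33302_g stood at 119, 343, 259 and 173 CPM after dicamba against 15.9, 7.71, 46.7 and 12.95 CPM after halauxifen-methyl (log2 fold change 3.47 ± 0.57, adjusted p = 0.028) and HW_16915_g at 442, 703, 717 and 659 CPM against 229, 289, 318 and 159 CPM (log2 fold change 1.38 ± 0.25, adjusted p = 0.048). Water plants had 136, 159.9, 105 and 119.8 CPM of HW_33302_g, overlapping dicamba and above every halauxifen-methyl plant. Both genes lost their calls without single libraries, at an adjusted p of up to 0.096 without halauxifen-methyl replicate 1 for HW_33302_g and 0.15 without halauxifen-methyl replicate 1 for HW_16915_g, and so did *AT3G19990*, at 0.1 without halauxifen-methyl replicate 2. HW_16915_g was called in none of the 8 such fits, and HW_33302_g and *AT3G19990* in 2 each.

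The remaining dicamba-high genes were the mitochondrial prohibitin *PHB2* (HW_926_g, log2 fold change 2.17 ± 0.23, adjusted p = 0.0051), the nicotinamidase *NIC1* of NAD salvage (HW_33004_g, 1.39 ± 0.21, adjusted p = 0.019) and the thylakoid cytochrome assembly factor *CcdA* (HW_14266_g, 1.24 ± 0.20, adjusted p = 0.023). *PHB2* was among the genes that kept their call with each library left out, but had an adjusted p of 0.41 in the fit of all 32 libraries. Without halauxifen-methyl replicate 1, *NIC1* and *CcdA* lost their calls, and the highest values were 0.065 without dicamba replicate 1 and 0.085 without dicamba replicate 1.

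The class of immunity and salicylic acid held 10 genes higher after halauxifen-methyl. This class was put together by hand after the calls had been seen. Its members include AAA-ATPases known from stress responses and a gene without an *A. thaliana* hit. It also holds a dirigent-like gene, while another dirigent-like gene, *AT2G21110*, was higher after dicamba. On the list of salicylic acid and pathogenesis genes, 11 genes were tested, 10 had a log2 fold change below 0 and the list median was -0.99, beside 0.03 for all genes, with 1 gene called. That gene was *EDS1* (HW_6346_g), the lipase-like hub of basal resistance, at 38.7, 43.8, 73.5 and 42.3 CPM after dicamba and 128, 111, 144 and 114 CPM after halauxifen-methyl, a log2 fold change of -1.29 ± 0.23 (adjusted p = 0.044). Dicamba replicate 3 stood above the other dicamba plants and still below all halauxifen-methyl plants. On a longer list of salicylic acid signalling and feedback genes, drawn up after the calls were known, 14 genes were tested, 4 were higher after halauxifen-methyl and none after dicamba, a count that reflects the choice of members.

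The 4 called genes of that list were *NIMIN-2*, *AT4G10490* and 2 genes annotated as *RDR1*. *AT4G10490* (HW_26514_g), a 2-oxoglutarate-dependent oxygenase of the DMR6-like group, in which enzymes that hydroxylate salicylic acid are known, stood at 5.73, 0.4097, 0.726 and 1.34 CPM after dicamba and 107, 117, 60.7 and 84.98 CPM after halauxifen-methyl, a log2 fold change of -5.47 ± 0.73 (adjusted p = 0.015). It was the largest difference in this direction among genes with an *A. thaliana* hit, and the halauxifen-methyl mean was 44.99 times the dicamba mean. *RDR1* (HW_38400_g), the antiviral RNA-dependent RNA polymerase induced by salicylic acid, stood at 16.9, 21.7, 12.9 and 11.7 CPM against 106, 83.4, 90.9 and 61.6 CPM, a log2 fold change of -2.40 ± 0.25 (adjusted p = 0.0051). Here water plants, at 96.4, 64.3, 119 and 38.5 CPM, overlapped the halauxifen-methyl plants and all dicamba plants lay below them. The other *RDR1* gene (HW_43177_g) had means of 32.02 ± 8.58 and 101 ± 35.7 CPM (SD, n = 4, log2 fold change -1.62 ± 0.29, adjusted p = 0.048), with water at 21.2 CPM. Among the tested genes 4 share the hit *RDR1*, so reads of near copies may be split.

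*NIMIN-2* (HW_11835_g), which binds NPR1, averaged 10.2 ± 4.06 CPM after dicamba and 55.2 ± 13.4 CPM after halauxifen-methyl (SD, n = 4, log2 fold change -2.39 ± 0.31, adjusted p = 0.015). HW_30763_g has no *A. thaliana* hit, and its closest NR protein is NIM1-INTERACTING 1-like of cotton. It stood at 0, 0, 0.168 and 0 CPM after dicamba, at most 3 counts per library, and at 6.91, 3.13, 0.898 and 7.56 CPM after halauxifen-methyl (adjusted p = 0.048). Set against a floor of 3 counts per library, the halauxifen-methyl mean was at least 31.6-fold higher. It was near or at 0 in water and 2,4-D plants. Its call was lost in 7 of the 8 fits that left out 1 library, with an adjusted p of up to 0.15 without dicamba replicate 1, and it was at 0.13 with all 32 libraries.

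The class also held 2 AAA-ATPases that are known from stress responses. *BCS1* (HW_25078_g), of the outer mitochondrial membrane, stood at 9.48, 9.697, 16.3 and 15.6 CPM after dicamba and 79.2, 99.5, 165 and 51.8 CPM after halauxifen-methyl, a log2 fold change of -2.91 ± 0.36 (adjusted p = 0.012). *AATP1* (HW_35244_g) stood at 11.8, 5.69, 5.64 and 9.23 CPM against 46.4, 43.6, 71.1 and 23.04 CPM, a log2 fold change of -2.47 ± 0.37 (adjusted p = 0.018). For *BCS1*, water plants at 27.5, 71.6, 50.01 and 13.7 CPM overlapped both groups. The receptor-like kinase *AT3G14840* (HW_24526_g, log2 fold change -1.36 ± 0.21, adjusted p = 0.019) and the dirigent-like *AT1G58170* (HW_31434_g, -1.61 ± 0.22, adjusted p = 0.015) completed the class. In the fit of all 32 libraries *AATP1* was at 0.26 and *AT1G58170* at 0.17.

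With each library left out in turn, 4 of the 10 genes of the immunity and salicylic acid class kept their calls, and 5 remained without dicamba replicate 2. *EDS1* reached an adjusted p of 0.15 without dicamba replicate 1. *EDS1* and *RDR1* (HW_43177_g) were each called in 1 of the 8 such fits. In the fit of all 32 libraries 7 of the 10 passed. Reads on the 226 genes whose best NR hit is a bacterial protein summed to 224 to 267 CPM of the raw library total in the dicamba libraries, 271 to 386 CPM in the halauxifen-methyl libraries and 125 to 159.95 CPM in water at 6 HAT. A single gene took 44.4% of these reads, 7 of the genes were tested and none was called. The part of this difference in the defence genes was not tested.

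A few chaperones went the same way. Of 170 heat shock and chaperone genes tested, 3 were higher after halauxifen-methyl and none after dicamba, although the list median was -0.05. Over all genes tested 0.272% were higher after halauxifen-methyl. DESeq2 called 21 and edgeR's exact test 16 of the list higher after halauxifen-methyl. Both also called more genes in all than the quasi-likelihood test, as counted in the closing section. *HSP23.6-MITO* (HW_20083_g), a small heat shock protein of mitochondria, stood at 14.4, 17.3, 12.7 and 24.6 CPM after dicamba and 34.3, 108, 197 and 285 CPM after halauxifen-methyl, a log2 fold change of -3.14 ± 0.55 (adjusted p = 0.043). *HSP70* (HW_15064_g) stood at 55.8, 45.4, 62.99 and 56.5 CPM against 94.9, 262, 473 and 215 CPM, a log2 fold change of -2.20 ± 0.39 (adjusted p = 0.048). *HSP60* (HW_30350_g), the mitochondrial folding chamber, stood at 213, 188, 205 and 242 CPM against 400.1, 725, 859 and 539 CPM, a log2 fold change of -1.54 ± 0.24 (adjusted p = 0.021). In each gene halauxifen-methyl replicate 1 was the lowest of its group and nearest to the dicamba plants. The summed level of the list was 11623 to 16030.4 CPM after dicamba and 15832 to 25066 CPM after halauxifen-methyl, and the ranges met.

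Some of these genes are mitochondrial. On a list of mitochondrial stress genes, 14 were tested and 4 were called, all higher after halauxifen-methyl (*BCS1*, *HSP23.6-MITO*, *HSP60* and *NDB2*). The list was drawn up after the calls were seen, so its count reflects the choice of members, and the mitochondrial prohibitin *PHB2*, which is not on it, was higher after dicamba. The external NADH dehydrogenase *NDB2* (HW_11988_g), an alternative route of electrons into the respiratory chain, averaged 16.3 ± 4.57 CPM after dicamba and 72.9 ± 26.3 CPM after halauxifen-methyl (SD, n = 4, log2 fold change -2.12 ± 0.28, adjusted p = 0.015). The small protein RAMP4 of the endoplasmic reticulum translocon (*AT1G27350*, HW_8714_g) averaged 60.9 ± 14.4 and 145 ± 31.4 CPM (SD, n = 4, log2 fold change -1.22 ± 0.22, adjusted p = 0.048). *NDB2* and *BCS1* kept their calls with each library left out. The adjusted p reached 0.15 without dicamba replicate 1 for *HSP23.6-MITO*, 0.15 without dicamba replicate 1 for *HSP70*, 0.089 without dicamba replicate 2 for *HSP60* and 0.17 without dicamba replicate 1 for RAMP4. *HSP23.6-MITO*, *HSP70* and RAMP4 were each called in 1 of the 8 such fits, and *HSP60* in 3.

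**Figure D3:**
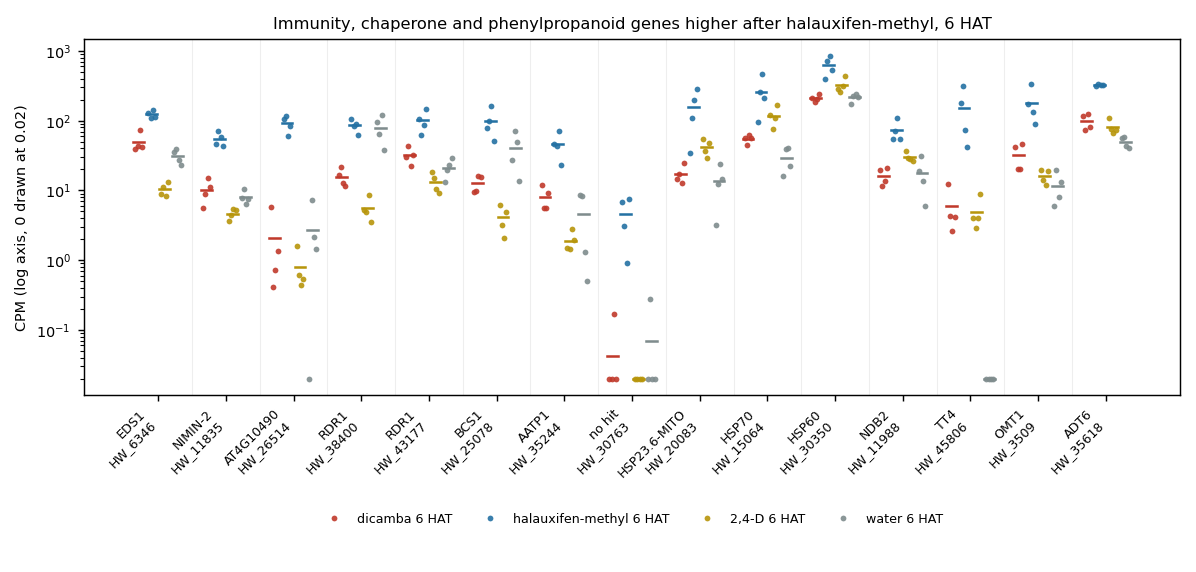
Points are CPM in each of the 4 libraries of dicamba, halauxifen-methyl, 2,4-D and water at 6 HAT, on a log axis with values of 0 drawn at 0.02, and bars are arithmetic means, for 15 immunity, chaperone, respiratory and phenylpropanoid genes higher after halauxifen-methyl. The halauxifen-methyl points lie above the dicamba points for every gene shown, as the choice of genes requires, and for *RDR1* (HW_38400_g) and *BCS1* water overlaps halauxifen-methyl.

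Phenylalanine and its products gave another 4 genes higher after halauxifen-methyl. *TT4*, chalcone synthase and the entry to flavonoids (HW_45806_g), stood at 12.5, 4.28, 2.62 and 4.19 CPM after dicamba and 182, 319.6, 73.8 and 41.9 CPM after halauxifen-methyl, a log2 fold change of -4.67 ± 0.72 (adjusted p = 0.021). All 4 water libraries had 0 counts of it. Among 12 flavonoid genes tested it was the one called, and the list median was -0.10. *OMT1* (HW_3509_g), which methylates lignin and flavonol precursors, stood at 41.9, 20.1, 20.3 and 46.6 CPM against 176, 334, 132 and 88.3 CPM, a log2 fold change of -2.47 ± 0.44 (adjusted p = 0.046). Halauxifen-methyl replicate 2 was highest and replicate 4 lowest of its group for both genes. On the phenylpropanoid list of 41 genes, *OMT1* was thus called in one direction and *ELI3-2* in the other, with a median of -0.29.

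*ADT6* (HW_35618_g), an arogenate dehydratase that makes phenylalanine, averaged 99.6 ± 26.5 CPM after dicamba and 324 ± 7.22 CPM after halauxifen-methyl (SD, n = 4, log2 fold change -1.67 ± 0.21, adjusted p = 0.012). HW_48666_g, without an *A. thaliana* hit and closest to an aurone synthase of *Coreopsis*, averaged 554 ± 134 and 1532 ± 214 CPM (SD, n = 4, log2 fold change -1.43 ± 0.21, adjusted p = 0.018). *ADT6* kept its call with each library left out. The adjusted p reached 0.1 without dicamba replicate 2 for *TT4*, 0.13 without dicamba replicate 2 for *OMT1* and 0.081 without dicamba replicate 4 for HW_48666_g. With all 32 libraries in one fit *OMT1* was at 0.27 and HW_48666_g at 0.6.

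Of 8 tested genes with *FAD2* as *A. thaliana* hit, 3 were higher after halauxifen-methyl, HW_49651_g, HW_26761_g and HW_1718_g. They are closest to fatty acid acetylenases, which in the daisy family make acetylenic fatty acids. Their log2 fold changes were -1.52 ± 0.27, -1.31 ± 0.21 and -1.29 ± 0.22 (adjusted p = 0.048, 0.024 and 0.033). Means for HW_1718_g were 46.3 ± 7.72 CPM after dicamba, 116 ± 30.9 CPM after halauxifen-methyl and 104 ± 16.4 CPM after water (SD, n = 4). The peroxisomal thiolase *PKT3* of fatty acid oxidation (HW_37594_g) showed the same order, with 19.3 ± 5.75, 51.1 ± 6.898 and 59.9 ± 29.1 CPM (SD, n = 4, log2 fold change -1.37 ± 0.23, adjusted p = 0.034). For these 4 genes and for *AT1G76520* and *RDR1* (HW_38400_g) every dicamba library was below every water library. Reads of near copies of *FAD2* may be split. None of the 4 genes kept its call with each library left out, and the adjusted p reached 0.13 without halauxifen-methyl replicate 2 for HW_49651_g. HW_49651_g was called in none of the 8 such fits, and HW_1718_g in 1. With the replicate block none of the 4 passed. Their adjusted p was then 0.16 (HW_49651_g), 0.12 (HW_26761_g), 0.13 (HW_1718_g) and 0.094 (*PKT3*).

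Cell wall genes included the pectin methylesterase *PME3* (HW_49346_g), which stood at 208, 134, 124 and 238 CPM after dicamba and 538, 791, 575 and 443 CPM after halauxifen-methyl, a log2 fold change of -1.70 ± 0.26 (adjusted p = 0.021). It was the 1 gene called of 52 pectin-modifying genes tested, whose median was -0.11. Over all genes tested 0.272% were higher after halauxifen-methyl. The galacturonosyltransferase-like *GATL2* of pectin synthesis (HW_4955_g) had a log2 fold change of -2.06 ± 0.32 (adjusted p = 0.021). *PME3* lost its call without 5 of the libraries, with an adjusted p of up to 0.086 without dicamba replicate 2, and *GATL2* reached 0.084 without dicamba replicate 1.

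An aspartyl protease and 3 genes of unclear role were also far lower after dicamba. The protease *AT1G03220* (HW_28126_g) stood at 425, 114, 154 and 241 CPM after dicamba and 1696, 1499, 619 and 1484 CPM after halauxifen-methyl, a log2 fold change of -2.48 ± 0.45 (adjusted p = 0.048). *AT5G40690* (HW_45570_g), annotated as trithorax-like, stood at 20.99, 13.6, 6.37 and 18.5 CPM against 89.1, 78.1, 129 and 42.2 CPM, a log2 fold change of -2.47 ± 0.41 (adjusted p = 0.03). *AT2G14095* (HW_25560_g) stood at 6.29, 3.78, 3.07 and 6.3004 CPM against 23.6, 26.7, 12.7 and 48.4 CPM, a log2 fold change of -2.49 ± 0.42 (adjusted p = 0.034). The protease was 21.2 CPM in water on average, below both herbicide groups. HW_18610_g, without a hit in either database, stood at 6.39, 4.23, 0.893 and 4.57 CPM against 31.2, 24.2, 48.4 and 24.6 CPM (log2 fold change -2.96 ± 0.50, adjusted p = 0.033). With single libraries left out each of these 4 genes lost its call, at an adjusted p of up to 0.13 without dicamba replicate 4 for the protease. *AT2G14095* was called in 1 of the 8 such fits, and the others in 2 each. In the fit of all 32 libraries *AT5G40690* was at 0.14 and *AT2G14095* at 0.45.

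The auxin efflux family gene *AT1G76520* (HW_13291_g), the 1 auxin transport gene among the 72, averaged 25.9 ± 7.13 CPM after dicamba, 63.3 ± 12.6 CPM after halauxifen-methyl and 73.1 ± 11.8 CPM after water (SD, n = 4, log2 fold change -1.26 ± 0.23, adjusted p = 0.048). It was called in none of the 8 fits that left out 1 library. The gene annotated as *SERAT2;1* (HW_37849_g, log2 fold change -1.18 ± 0.20, adjusted p = 0.036) is closest to a P450 in the NR database, so its annotations conflict, and its adjusted p reached 0.12 without dicamba replicate 4. HW_37849_g was called in 1 of the 8 such fits. The remaining 7 genes higher after halauxifen-methyl had log2 fold changes between -2.38 and -1.38. They were an elongation factor (*AT5G60390*), copper and heavy metal binding proteins (*AT4G05030*, *AT5G60800*), a dehydrogenase (*AT3G55290*), a hydrolase (*AT5G49950*), a BTB domain protein (*AT5G41330*) and *AT1G28190* of unknown role. Each of the 7 lost its call without at least 1 library. *AT3G55290* (HW_50764_g) was called in none of the 8 such fits, and *AT1G28190* (HW_20614_g) reached 0.13 without dicamba replicate 1. In the fit of all 32 libraries 5 of them were lost, *AT3G55290* at 0.56, *AT4G05030* (HW_41586_g) at 0.41, *AT1G28190* at 0.26, *AT5G41330* (HW_33975_g) at 0.24 and *AT5G60800* (HW_53829_g) at 0.12.

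On the auxin lists no gene passed the threshold. *AT1G76520*, given above, is not a member of them. The lists held 14 AUX/IAA repressors, 9 GH3 amido synthetases, 31 SAUR genes, 29 receptors and ARFs and 18 genes of auxin transport and synthesis that were tested, with list medians of -0.05, -0.03, -0.11, 0.09 and -0.17. Without adjustment edgeR's quasi-likelihood test gave p under 0.05 for 1, 1, 1, 3 and 3 of them, DESeq2 called 1 AUX/IAA gene and 1 transport gene, both higher after halauxifen-methyl, and edgeR's exact test called none. The 95% interval of the difference lay within 1 log2 unit on either side of 0 for 8 of the AUX/IAA, 3 of the GH3, 12 of the SAUR, 12 of the receptor and ARF and 6 of the transport genes, beside 41.6% of all genes tested, so that larger differences remain possible for the others.

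The member with the smallest p of the AUX/IAA list was *IAA29* (HW_50873_g), at 410.3 ± 103 CPM after dicamba, 826 ± 252 CPM after halauxifen-methyl and 18.3 ± 12.3 CPM after water (SD, n = 4). Its log2 fold change was -0.97 ± 0.27 with a 95% interval of -1.57 to -0.37 (adjusted p = 0.22). For the GH3 list it was *DFL1* (HW_43852_g), at 127 ± 34.7 and 199.6 ± 28.3 CPM beside 0.565 CPM in water, with a log2 fold change of -0.61 ± 0.22 (interval -1.10 to -0.13, adjusted p = 0.38). Every plant of either herbicide was far above every water plant for both genes, and all dicamba plants were below all halauxifen-methyl plants. *SAUR22* (HW_40710_g, -1.28 ± 0.43, adjusted p = 0.34), *ARF18* (HW_33435_g, 0.78 ± 0.28, adjusted p = 0.38) and *AUX1* (HW_44138_g, -0.85 ± 0.25, adjusted p = 0.26) had the smallest p of their lists.

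The same held for the lists of other hormones. No gene was called among 15 genes of abscisic acid (ABA) synthesis and breakdown, 29 of ABA response, 28 of ethylene, 27 of jasmonate and 20 of gibberellin and brassinosteroid, with medians of 0.26, 0.16, -0.17, -0.09 and -0.17. Before adjustment 3, 5, 5, 3 and 4 had p under 0.05. DESeq2 called 1, 2, 2, 1 and 2 of them, and edgeR's exact test 0, 0, 2, 1 and 2. The members with the smallest p were *ABA2* (HW_23442_g, log2 fold change -2.17 ± 0.71, adjusted p = 0.33), *ABF4* (HW_30502_g, 0.68 ± 0.18, 0.19), the ACC oxidase-like *AT1G77330* (HW_29455_g, -0.94 ± 0.23, 0.14), *JAZ6* (HW_3107_g, -1.47 ± 0.36, 0.14) and *GA3OX1* (HW_38092_g, 2.71 ± 0.57, 0.078). *GA3OX1*, which makes active gibberellin, stood at 5.73, 6.05, 12.01 and 7.25 CPM after dicamba against 1.65, 1.76, 1.17 and 0.247 CPM after halauxifen-methyl and 0.193 CPM in water on average, without overlap of the herbicide groups.

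Photosynthesis genes, 92 of them tested, gave no call and a median of 0.13, and *RBCS2B* (HW_33649_g) had the smallest p (3.00 ± 0.85, adjusted p = 0.22). Unadjusted p was under 0.05 for 5 of them, and DESeq2 and the exact test each called 1. Among senescence, clock, mesophyll and other-cell-type lists no gene passed the quasi-likelihood test, and *PPH* (HW_14776_g, 0.48 ± 0.15, adjusted p = 0.33), *AT3G54500* (HW_29518_g, 0.45 ± 0.20, 0.53), *CAB1* (HW_3576_g, 0.62 ± 0.37, 0.7) and *AP3* (HW_23618_g, 1.45 ± 0.34, 0.13) had the smallest p. Unadjusted p was under 0.05 for 3, 1, 0 and 2 of these genes, and DESeq2 and the exact test each called 1 of the other-cell-type genes. *AP3*, a floral MADS-box hit, stood at 36.3, 31.2, 16.4 and 28.05 CPM after dicamba and 10.99, 6.87, 7.46 and 16.4 CPM after halauxifen-methyl.

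Transcription factor lists held no called gene. Of 27 WRKY factors, which include many defence regulators, 20 had a log2 fold change below 0, the median was -0.38, and *WRKY41* (HW_31419_g) had the smallest p (-1.23 ± 0.34, adjusted p = 0.22). Of 46 AP2/ERF factors 29 were below 0, the median was -0.33, and *ERF-1* (HW_3753_g), at 5.07, 2.23, 8.43 and 7.34 CPM after dicamba and 21.4, 39.5, 31.3 and 16.8 CPM after halauxifen-methyl, missed the threshold narrowly (-2.20 ± 0.42, adjusted p = 0.056). Of all 14719 genes 52.7% were above 0. Before adjustment 6 WRKY and 11 AP2/ERF genes had p under 0.05, and DESeq2 called 1 WRKY and 5 AP2/ERF genes, the exact test 1 and 5. The NAC (*NAC017*, HW_25686_g, -1.58 ± 0.61, adjusted p = 0.44), MYB (*MYB77*, HW_29075_g, -0.88 ± 0.24, 0.19), expansin (*EXPA1*, HW_27417_g, -1.16 ± 0.28, 0.13), terpene synthase (*TPS02*, HW_14790_g, -2.72 ± 0.84, 0.29), aquaporin (*TIP1;3*, HW_44857_g, -0.78 ± 0.22, 0.22), ribosomal (*RFC3*, HW_31512_g, 0.79 ± 0.20, 0.16) and histone and cell cycle (*HTA12*, HW_21614_g, 0.92 ± 0.45, 0.58) lists also had no call. In that order 2, 10, 4, 6, 2, 4 and 0 of their genes had an unadjusted p under 0.05, and DESeq2 called 0, 3, 2, 0, 1, 2 and 0 and the exact test 0, 1, 1, 0, 0, 0 and 0.

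**Figure D4:**
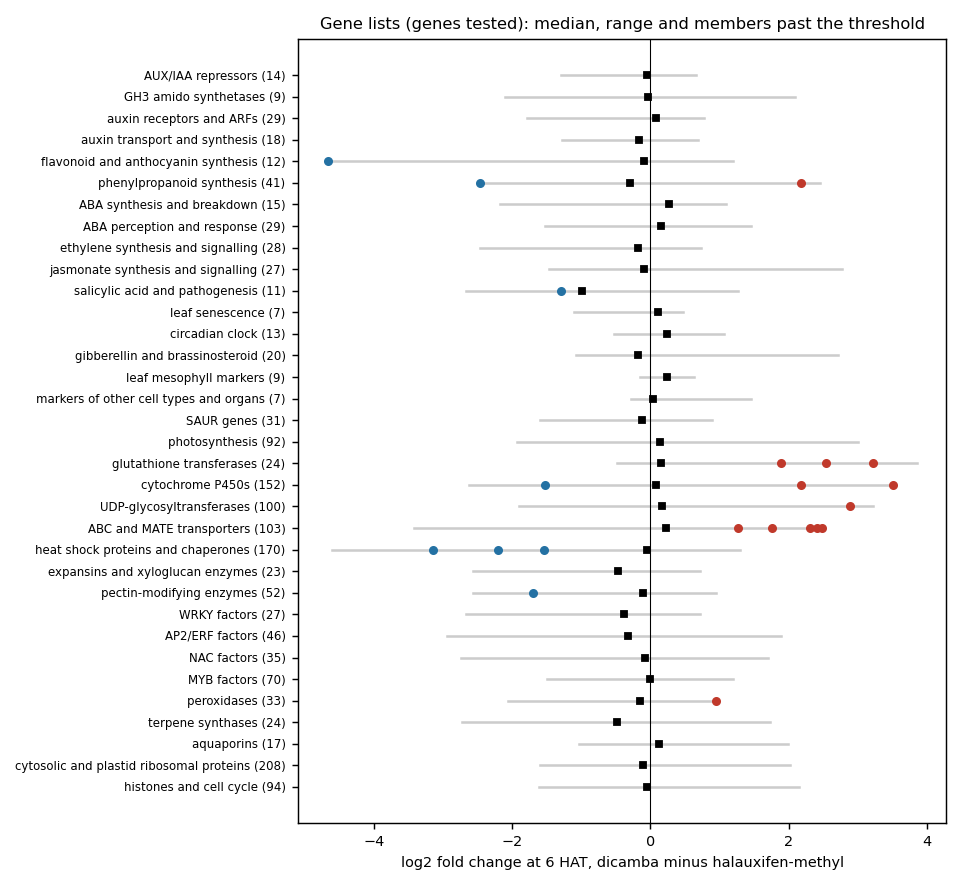
Each line is a gene list with the number of genes tested in brackets. Grey lines span the lowest to the highest log2 fold change at 6 HAT, dicamba minus halauxifen-methyl, black squares are medians, and red and blue points are the members past the adjusted p of 0.05. Medians lie between -0.99 and 0.26, and the called members sit on the transferase, transporter, P450, peroxidase, phenylpropanoid, flavonoid, salicylic acid, chaperone and pectin lists.

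The study had picked 5 genes for qRT-PCR, and these were looked up in the counts. *ELI3-2* was higher after dicamba, as given above. *GH3.1* (HW_53227_g), a strong auxin-induced gene, stood at 216, 63.7, 53.4 and 170.5 CPM after dicamba and 145, 97.7, 144 and 156 CPM after halauxifen-methyl, with a mean of 0.938 CPM in water, and its log2 fold change was -0.08 ± 0.41 with a 95% interval of -0.99 to 0.83 (adjusted p = 0.98). *NCED5* (HW_34273_g), of the step that commits carotenoids to ABA, stood at 6.69, 3.19, 9.77 and 8.76 CPM after dicamba and at 6.51, 4.85, 4.14 and 5.54 CPM after halauxifen-methyl, with 0.739 CPM in water, and a log2 fold change of 0.46 ± 0.38 (interval -0.39 to 1.31, adjusted p = 0.82). For *GH3.1* and *NCED5* the herbicide groups overlapped. Intervals for a SAUR-like gene (HW_18003_g, -0.71 to 1.54) and the starch synthase *SS2* (HW_28000_g, -0.80 to 3.19) also spanned 0.

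Many of the dicamba-high genes also differed at 1 HAT. The same contrast was fitted in 8 other plants sampled 1 h after treatment, which share no library with 6 HAT. There, 46 of 14365 genes were higher after dicamba (0.32%) and 5 were higher after halauxifen-methyl (0.0348%). Of the 32 dicamba-high genes of 6 HAT, 31 were tested at 1 HAT, 29 had the same sign and 17 were called in the same direction, with a median log2 fold change of 3.02 beside -0.01 for all genes. The 17 genes are 23.61% of the 6 HAT calls and 33.3% of the 1 HAT calls. *UGT89B1* stood at 279, 295, 221 and 195 CPM in the dicamba plants of 1 HAT and 6.06, 6.51, 7.77 and 9.07 CPM in the halauxifen-methyl plants, a log2 fold change of 5.07 ± 0.24 (adjusted p = 4.6e-06). *GSTU25* stood at 176, 179, 149 and 161 CPM against 8.65, 12.1, 11.2 and 11.4 CPM, a log2 fold change of 3.94 ± 0.20 (adjusted p = 4.6e-06). *ABCC10* stood at 1023, 1117, 709.9 and 1311 CPM against 188, 83.2, 89.7 and 108 CPM, a log2 fold change of 3.15 ± 0.31 (adjusted p = 0.00055). The lowest dicamba plant was above the highest halauxifen-methyl plant in all 3 genes, and water plants of 1 HAT averaged 7.39, 12.5 and 144 CPM.

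By family, 2 of the 4 glutathione transferases or peroxidases, 5 of the 6 transporters, 7 of the 10 oxidoreductases and 1 of the 3 sugar transferases were called at both times. *PHB2*, *NIC1*, *CcdA*, *AT1G71140*, *AT1G06620* and *AT1G48120* had log2 fold changes below 0.6 at 1 HAT and none passed there. Of the 40 halauxifen-high genes, 39 were tested at 1 HAT, 31 had the same sign and none was called by the quasi-likelihood test, with a median of -0.56. Unadjusted p was under 0.05 for 7 of them, DESeq2 called 2 and the exact test 1. Across the 13712 genes tested at both times 59.7% had the same sign.

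**Figure D5:**
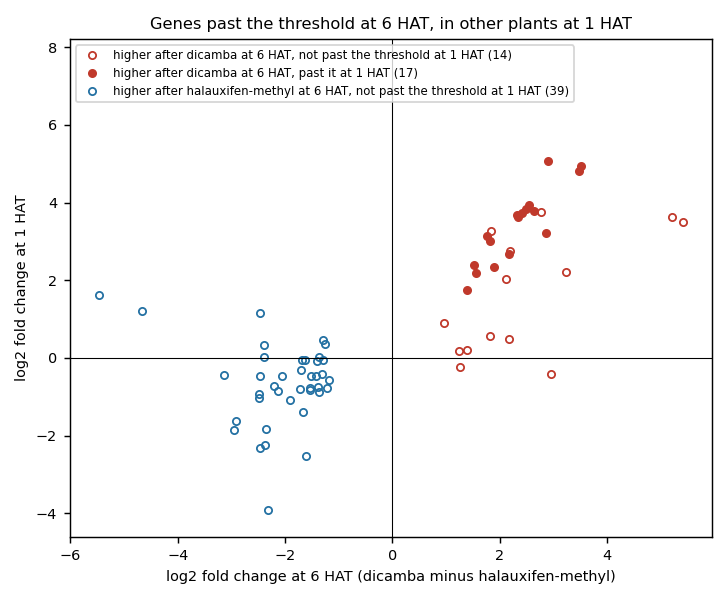
Each point is a gene past the threshold at 6 HAT that was also tested at 1 HAT. The x axis gives the log2 fold change at 6 HAT and the y axis that at 1 HAT in other plants, both as dicamba minus halauxifen-methyl. Of the 31 red genes 17 are filled, which marks an adjusted p of at most 0.05 at 1 HAT, and none of the 39 blue genes is.

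The difference between the times was tested directly as a herbicide by time interaction in the 16 libraries. Of 16148 genes 7 passed (0.0433%), of which 2 were also called at 6 HAT. *AT4G10490* had 2.504, 4.41, 3.04 and 0.471 CPM after dicamba and 0.242, 1.72, 1.305 and 0.0468 CPM after halauxifen-methyl at 1 HAT, without the excess after halauxifen-methyl seen at 6 HAT, and its interaction was -7.11 ± 1.19 (adjusted p = 0.037). *AT3G19990* was not tested at 1 HAT, where it averaged 0.0131 and 0.7597 CPM. Its interaction was 8.48 ± 1.29 (adjusted p = 0.018), a fitted value that rests on libraries near 0.

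Set beside water, most dicamba-high genes lay above it after dicamba and overlapped it after halauxifen-methyl. Of the 32 genes 30 had every dicamba library above every water library of 6 HAT, where 9.72% of all genes did, while for halauxifen-methyl 8 genes lay above water (13.9% of all genes), 3 below (9.23%) and 21 overlapped it. Of the 40 halauxifen-high genes 30 had every halauxifen-methyl library above every water library, while after dicamba 7 lay above water, 6 below (7.62% of all genes) and 27 overlapped it. The dicamba and halauxifen-methyl libraries that chose the genes enter these counts, so the shares are a description.

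Plants treated with 2,4-D chose nothing here. For 31 of the 32 dicamba-high genes the 2,4-D mean at 6 HAT was above the means of both other herbicides, beside 30.8% of all genes tested, as in *ELI3-2* with 5651 ± 241 CPM and *GSTU19* with 199 ± 23.8 CPM (SD, n = 4). For 31 of the 40 halauxifen-high genes the 2,4-D mean was below both, beside 38.4% of all genes tested, as in *EDS1* with 10.4 ± 2.32 CPM and *RDR1* (HW_38400_g) with 5.56 ± 2.13 CPM (SD, n = 4). These levels were not tested.

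On their contigs, *GSTU25* spans bases 5606 to 6971, *UGT89B1* bases 11335 to 12708, *AT4G10490* bases 10338 to 11552 and *EDS1* bases 3242 to 5605. All 72 genes lie on contigs of the draft assembly as coding models of 1 to 20 exons, and none overlaps another predicted gene. For 44 of them another tested gene has the same *A. thaliana* hit. Genes just inside the threshold were *AT1G76520* and *AT1G27350* at an adjusted p of 0.0483, and just outside were *ERD15* and *ABCG40* at 0.0502, with log2 fold changes of -1.22 and -2.52.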

How the data were processed

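RNA from 32 leaves, 8 groups of 4 plants, was sequenced as 1 library each. The deposited values are raw read counts per predicted gene of the draft horseweed genome. The submitters' processing notes name FastQC 0.11.2, STAR 2.5.2b and HTSeq 0.6.1. Strand setting and treatment of reads shared by near-identical genes are not given in the sources used here.

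Counts of the 4 dicamba and the 4 halauxifen-methyl libraries of 6 HAT were fitted alone (R 4.3.3, edgeR 4.0.16, limma 3.58.1), with genes filtered by filterByExpr at a minimum count of 10, TMM factors, and glmQLFit and glmQLFTest. Benjamini-Hochberg adjustment ran over all genes tested, with a threshold of 0.05. The 1 HAT contrast and the herbicide by time interaction were fitted likewise. Intervals are 95% intervals of the log2 fold change. CPM values use TMM factors over all 32 libraries, depend on gene length, and are not compared between genes. DESeq2 1.42.0, the exact test, other scalings, filters, designs and left-out libraries served as alternatives. Scripts were tested on simulated data. Labels name plants as separate samples, and no 2 libraries agreed within sampling noise.

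Every gene past the threshold could be named. Values per library are given for the 10 highest and 10 lowest log2 fold changes with an *A. thaliana* hit and separate groups, for list members past the threshold, and for the 2 highest and 2 lowest without a hit, while a list without a call is represented by its member of smallest p. The members and lists were chosen with earlier results of these data known. The function classes and the lists of aldo-keto reductases, salicylic acid signalling and mitochondrial stress genes were drawn up after the values had been seen. Sequences are not used here.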

Additional observations from a re-analysis of the deposited data

Results flagged for a closer look

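In 5 of 78 groups of 4 libraries examined, 1 library stood apart from the other 3 by Dixon's criterion, where chance alone gives about 1 in 20, or 3.9. The MATE gene *AT5G44050* (HW_28710_g) was 29.8 CPM in halauxifen-methyl replicate 4 and 81.8 to 90.0 CPM in the others. *GPX6* (HW_39856_g) was 81.9 CPM in halauxifen-methyl replicate 1 and 90.9 to 92.6 CPM in the others. *EDS1* (HW_6346_g) was 73.5 CPM in dicamba replicate 3 and 38.7 to 43.8 CPM in the others. *TT4* (HW_45806_g) was 12.5 CPM in dicamba replicate 1 and 2.62 to 4.28 CPM in the others. HW_30763_g was 0.168 CPM in dicamba replicate 3, which is the floor of 3 counts, and 0 in the others. With the others at 0 any count is flagged, so the rate of 1 in 20 does not hold for this gene.

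The difference between dicamba and halauxifen-methyl itself differed between 6 HAT and 1 HAT for 7 genes by edgeR's quasi-likelihood test of the interaction, coded as 6 HAT minus 1 HAT. 5 of them were not past the threshold at 6 HAT and were singled out after their values had been seen. The aldo-keto reductase *AT1G59960* (HW_15839_g) had an interaction of -3.77 ± 0.33 (SE, adjusted p = 3.2e-05), from means of 1238 CPM after dicamba and 58.8 CPM after halauxifen-methyl at 1 HAT and 169 and 109.7 CPM at 6 HAT. A gene annotated as the serine acetyltransferase *SERAT2;1* (HW_20069_g) had an interaction of -3.60 ± 0.48 (SE, adjusted p = 0.0067), from means of 127 CPM after dicamba and 12.3 CPM after halauxifen-methyl at 1 HAT and 11.8 and 13.99 CPM at 6 HAT. The MATE gene *AT3G26590* (HW_15989_g) had an interaction of -2.90 ± 0.42 (SE, adjusted p = 0.014), from means of 252 CPM after dicamba and 18.98 CPM after halauxifen-methyl at 1 HAT and 257 and 145 CPM at 6 HAT. The E3 ligase *AT3G19990* (HW_36627_g) had an interaction of 8.48 ± 1.29 (SE, adjusted p = 0.018), from means of 0.0131 CPM after dicamba and 0.760 CPM after halauxifen-methyl at 1 HAT and 79.7 and 8.59 CPM at 6 HAT. The oxygenase *AT4G10490* (HW_26514_g) had an interaction of -7.11 ± 1.19 (SE, adjusted p = 0.037), from means of 2.61 CPM after dicamba and 0.828 CPM after halauxifen-methyl at 1 HAT and 2.05 and 92.3 CPM at 6 HAT. *AT1G76600* (HW_27258_g) had an interaction of -1.55 ± 0.26 (SE, adjusted p = 0.037), from means of 42.0 CPM after dicamba and 26.1 CPM after halauxifen-methyl at 1 HAT and 51.0 and 92.9 CPM at 6 HAT. The calcium-binding *CP1* (HW_8008_g) had an interaction of -3.31 ± 0.56 (SE, adjusted p = 0.037), from means of 1759.7 CPM after dicamba and 85.5 CPM after halauxifen-methyl at 1 HAT and 868 and 419 CPM at 6 HAT.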

How the results depend on the processing

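No gene among the 72 changed direction under any alternative that tested it, which their separate groups already favour. Past the threshold under every alternative that kept all 8 libraries and tested the gene were 28. The filter of at least 10 counts in every library left 69 of the 72 genes in the test. The number of genes past it at 6 HAT, 72 as reported, was 145 without a filter on low counts, 47 with the replicate block, 136 with all 32 libraries in one fit, 375 with DESeq2's Wald test, 276 with edgeR's exact test, 272 by both, and 159 with the 16 libraries of 6 HAT, a fit chosen after seeing the data. In the same order the genes higher after dicamba were 56, 30, 49, 130, 91, 91 and 70, and those higher after halauxifen-methyl 89, 17, 87, 245, 185, 181 and 89. List members past the threshold, 21 as reported, were 40 without a filter, 13 with the replicate block, 42 with 32 libraries, 94 with DESeq2, 67 with the exact test and 44 with the 16 libraries. At 1 HAT the 51 genes became 138 without a filter, 107 with 32 libraries, 174 with DESeq2, 131 with the exact test and 124 by both. The 7 interaction genes became 21 without a filter and 51 with DESeq2.

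Leaving out 1 library gave 23 to 77 genes at 6 HAT, fewest without halauxifen-methyl replicate 2 (13 to 36 higher after dicamba, 10 to 47 higher after halauxifen-methyl), 4 to 22 list members, 31 to 93 genes at 1 HAT, most without halauxifen-methyl replicate 4, and 3 to 9 interaction genes. Same-numbered libraries deviated together at correlations of 0.170, -0.171, 0.201 and 0.095. The labels do not say whether the numbers pair the plants, and these few values cannot settle it. With the replicate block 63.8% of the calls were higher after dicamba, against 44.4% without it. The cause of these shifts was not tested. With 4 plants a group, differences may go undetected, and not only in genes at the lowest levels. The simulation did not separate variable from steady genes. In simulated counts of genes above the lowest levels, the test recovered 13.2% of true log2 differences of 1. It recovered 53.0% of those of 2 and 86.4% of those of 3.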
